A study of Mus musculus with 26 samples.

Results

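Tg101 CD8+ T cells recovered from the liver of leukemia-bearing mice at day 7 were compared with the same cells recovered from the spleen at that day. The comparison was chosen by the tissue and day in the labels and holds 4 of the 15 RNA-seq libraries of the series (2 from liver and 2 from spleen) and 7 of its 26 sequencing runs. The mice are given as C57BL/6, 6 weeks old and wild type. Recipients received labelled, naive Tg101 T cells and, a day later, C1498 leukemia cells by vein. For such transfers the study's methods name B6.SJL or C57BL/6 recipients. The donor cells carry a transgenic T cell receptor on a Rag2-/- background, and all 4 libraries share this receptor, the transfer and the leukemia, so tissue is the difference that the labels give. Cells were sorted by flow cytometry, and low-input RNA libraries were made from them. All 4 libraries have XC in their titles, and the sources used here do not say whether this marks a sequencing batch. They are called liver 1, liver 2, spleen 1 and spleen 2 here, and the numbers only name them.

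The receptor of Tg101 T cells recognizes an antigen of C1498, a myeloid leukemia line from C57BL/6 mice that grows in the liver after injection into the blood. A naive CD8+ T cell recirculates through lymphoid organs such as the spleen, guided by CCR7 and the sphingosine phosphate receptor S1PR1. When its receptor binds antigen, immediate early genes such as those of the NR4A and EGR families are transcribed within hours, then cytokines, chemokines, killing molecules and inhibitory receptors, and the cell divides. With antigen that persists, the inhibitory receptors and the factor TOX stay on, a state named exhaustion.

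The libraries held 22691255 to 37984733 estimated counts. Trbv5, the beta chain segment of the transgenic receptor, held 99.08% to 99.89% of all counts on Trbv segments in the 4 libraries. The Trav13 family, that of its alpha chain, held 59.67% and 86.69% of counts on Trav segments in liver 1 and liver 2. In spleen 1 and spleen 2 it held 61.83% and 73.52%. Trav segments held 2890 to 7793 counts, against 147131 to 224627 on Trbv segments. Where the other Trav counts came from was not tested. The 10 CD8 T cell markers were above 1 CPM (counts per 1000000 counts, scaled for library composition) in all 4 libraries, with a summed level of 5006 to 7154 CPM. The libraries stood apart from each other in 3 ways. Ddx3y and Eif2s3y, genes of the Y chromosome, were at 72.0 and 55.7 CPM in liver 1 and at 81.7 and 67.0 CPM in spleen 1, but at 0.614 CPM or less in liver 2 and spleen 2. A pair of other Y-linked genes went less far, with Kdm5d at 47.0 and 52.7 CPM in liver 1 and spleen 1 and at 10.2 and 38.1 CPM in liver 2 and spleen 2, and Uty at 35.4 and 43.3 CPM against 1.97 and 6.75 CPM. The labels give no sex. Differences are also given within pairs set by Ddx3y and Eif2s3y after the data were seen, liver 1 with spleen 1 and liver 2 with spleen 2. Spleen 2 had 19841 genes with at least 10 counts against 14303 to 15353 in the other 3 libraries, and the 1481 olfactory, vomeronasal and trace amine receptor genes, which T cells are not known to use, summed to 6053 CPM in it against 1006.5 to 1391 CPM. In the 10 libraries of other groups that sum was 448 to 1513 CPM. Markers of other cells also differed. The 12 macrophage and Kupffer cell markers summed to 78.1 CPM in spleen 2 and to 4.6 to 8.38 CPM in the others, and the 9 dendritic cell markers to 101 CPM against 13.9 to 46.8 CPM. The 10 hepatocyte markers summed to 11.3 and 3.7 CPM in the livers and to 1.71 and 20.8 CPM in the spleens, with Alb (albumin) at 3.16 and 0.908 CPM in the livers and 0.028 and 0.722 CPM in the spleens. Trf, which encodes transferrin, made up 17.2 CPM of the sum in spleen 2. The 6 erythroid markers summed to 106 CPM in liver 2 and to 1.17 to 23.2 CPM elsewhere. The 9 B cell markers summed to 372 to 665 CPM, of which Ighm alone was 341 to 627 CPM, while Pax5 was at 1.19 CPM or less. The lists for CD4 T, NK, plasma, neutrophil, stellate and platelet cells summed to 12.8 CPM or less, and the 8 endothelial markers to 105 to 190 CPM, of which Pecam1, an adhesion molecule also found on naive T cells, was 102 to 187 CPM. In bulk RNA, fewer cells of a type and less RNA per cell cannot be told apart. The part of these differences in the results was not tested.

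With all 14 low-input libraries in 1 model, none of 15465 tested genes differed between day 7 liver and day 7 spleen (0%, edgeR quasi-likelihood test with Benjamini-Hochberg adjustment, adjusted p of 0.603 at the lowest), and 1219 genes had an unadjusted p below 0.05. DESeq2 in the same design called 90 of 15165 genes (0.593%), 24 higher in liver and 66 higher in spleen. In 18 of those 24 genes liver 1 was at least 2-fold above liver 2, and in 44 of those 66 genes spleen 2 was at least 2-fold above spleen 1. The root mean square difference over tested genes was 1.21 on the log2 CPM scale between the livers and 1.15 between the spleens, against 0.75 between liver 2 and spleen 1 and 1.44 between liver 1 and spleen 2. Liver 1 was at least 2-fold above liver 2 for 2357 genes (15.2%) and at least 2-fold below it for 1488 (9.62%). Spleen 1 was at least 2-fold above spleen 2 for 337 genes (2.18%) and at least 2-fold below it for 3325 (21.5%). Both liver libraries were above both spleen libraries for 1807 genes (11.7%), and both spleen libraries above both liver libraries for 2179 (14.1%). A gap of at least 2-fold between the nearest libraries of the tissues remained for 30 genes with liver above (0.194%) and for 134 with spleen above (0.866%).

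The day 7 libraries were placed on a line through the log2 CPM of all tested genes, from the mean of the XC day 0 and leukemia-free day 18 spleen libraries at 0 to the mean of the XC day 13, day 14 and day 16 liver libraries at 1. Liver 1 was at 0.707. Liver 2 was at 0.0633, spleen 1 at 0.208 and spleen 2 at 0.00519. Liver 1 was thus the highest of the 4, spleen 2 the lowest, and liver 2 lay between the spleens. Spleen 2 was also 1.10 off the line in log2 CPM, against 0.614 to 0.690 for the other 3, and it was at 0.0580 with the first run of each library alone. The day 13 liver library was at 0.861, the day 14 spleen library at 0.421 and undivided cells of day 18 at 0.115. The day 0 library at the 0 end held 20330 CPM of erythroid markers. Ddx3y and Eif2s3y together were under 10 CPM in the undivided and leukemia-free libraries, as in liver 2 and spleen 2, and above it in the 8 other libraries of the fit outside day 7. The part of this in the positions was not tested.

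**Figure D1:**
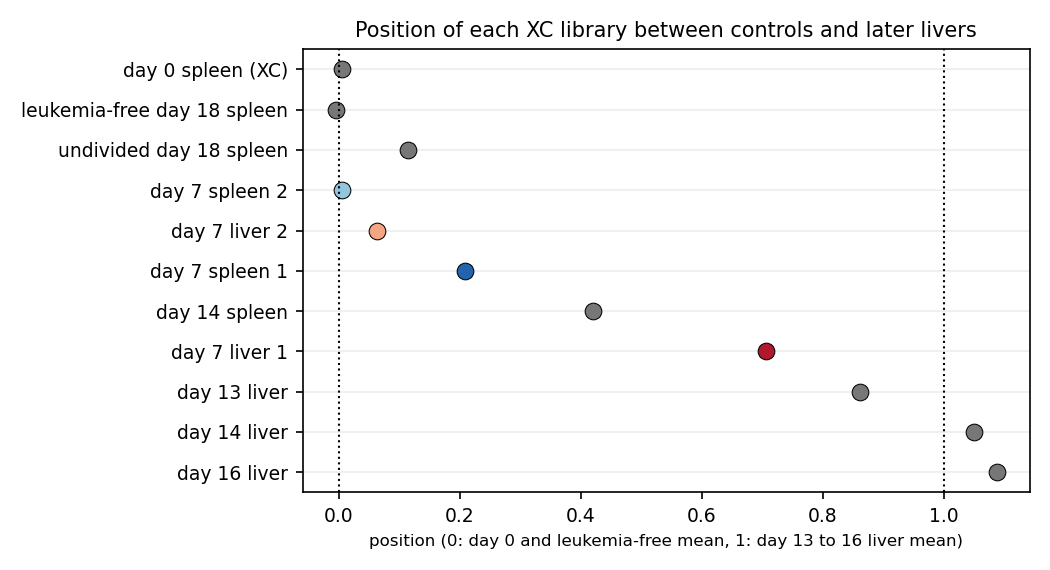
Position of each XC library between the control libraries (0) and the later liver libraries (1), in log2 CPM over all tested genes, with 1 point a library and no error. Liver 1 at 0.707 lies next to the day 13 liver at 0.861, and liver 2 at 0.0633 lies with the spleens and the controls.

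Within the pairs set by Ddx3y and Eif2s3y, 85 genes were at least 2-fold higher in liver in both and 358 at least 2-fold lower in both. At least 2-fold in opposite directions were 681 genes, higher in liver 1 than in spleen 1 and lower in liver 2 than in spleen 2. The other way round were 27. Of all 15465 genes, liver 1 was at least 2-fold above spleen 1 for 1871 and below it for 1181. Liver 2 was at least 2-fold above spleen 2 for 211 and below it for 3384. How far the broad excess of spleen 2 set these counts was not tested. With the presence of Ddx3y and Eif2s3y as a term of the model (called cell sex here), added after the data were seen, edgeR called 1 gene, Ccl3 (log2 fold change 7.68, adjusted p = 0.00677).

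**Figure D2:**
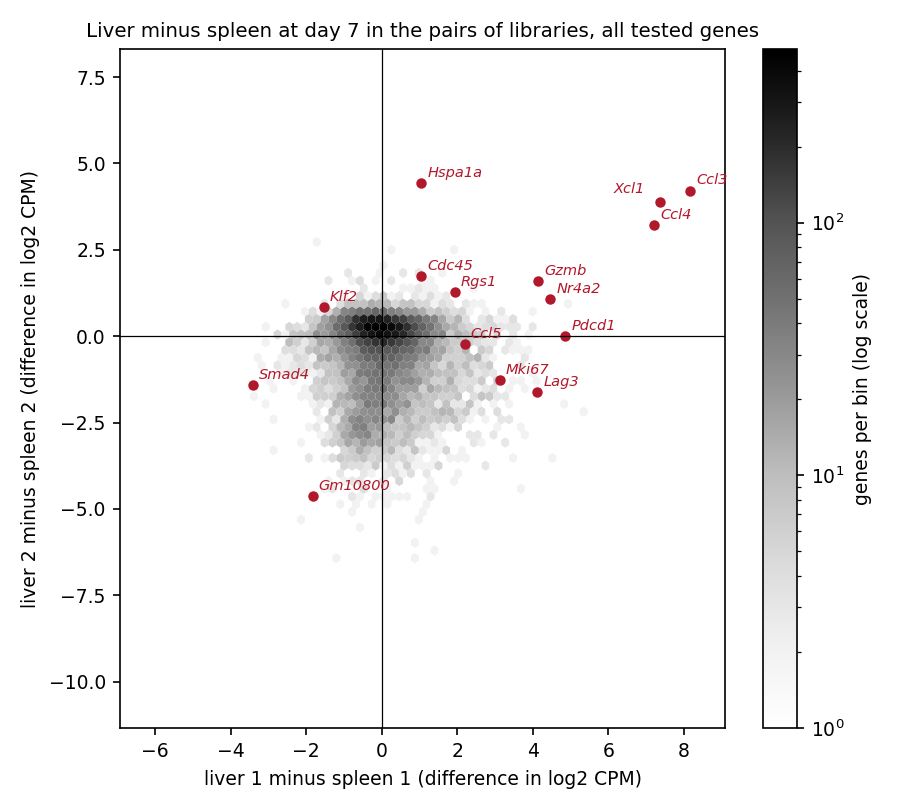
Difference of liver 1 from spleen 1 (horizontal) and of liver 2 from spleen 2 (vertical) in log2 CPM for the 15465 tested genes, as counts per hexagon with some named genes marked. Ccl3, Xcl1 and Ccl4 are far to the right and above 0, Pdcd1, Lag3 and Mki67 are far to the right and near or below 0, and a cloud of genes extends downwards, where spleen 2 was high.

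The chemokines Xcl1, Ccl3 and Ccl4 were higher in both livers than in both spleens, with liver 1 far above the rest, and Ccl5 was not. Xcl1, the ligand of XCR1 on cross-presenting dendritic cells, was at 1774 CPM in liver 1, 22.2 in liver 2, 10.8 in spleen 1 and 1.44 in spleen 2. Both livers were above both spleens, and liver 1 was far above liver 2 (log2 fold change of liver over spleen 7.19 ± 2.01 SE, n = 2 against 2, edgeR adjusted p = 0.603). Ccl3, a ligand of CCR1, was at 345 and 3.60 CPM in the livers and at 1.15 and 0.144 CPM in the spleens (8.01 ± 2.06, adjusted p = 0.603). Ccl4, a related chemokine, was at 635 and 7.89 CPM in liver and at 4.25 and 0.794 CPM in spleen (6.97 ± 1.95, adjusted p = 0.603). DESeq2 called all 3 (adjusted p = 0.00232, 0.000593 and 0.00265). Ccl5, another chemokine and a feature of memory and effector CD8+ T cells, had another order, with 402 CPM in liver 1, 87.9 in spleen 1, 5.63 in spleen 2 and 4.82 in liver 2, so its tissues overlapped. Of the 13 tested genes of the cytokine and chemokine list, 8 had both livers above both spleens (11.7% of all tested genes did) and 1 had both spleens above (14.1% of all). The list's median log2 fold change was 3.93, against -0.01 over all tested genes, and its median difference was 4.04 between liver 1 and spleen 1 and 0.75 between liver 2 and spleen 2.

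Among cytokines, Il2, the growth factor of T cells, was at 31.8 CPM in liver 1 and at 0.224 to 0.814 CPM in the other 3, lowest in spleen 1 and highest in liver 2 (5.99 ± 1.77, edgeR adjusted p = 0.603, DESeq2 adjusted p = 0.0227). Csf2, which encodes GM-CSF, was at 5.57 CPM in liver 1 and at 0.157 CPM or less in the rest (edgeR adjusted p = 0.603, DESeq2 adjusted p = 0.0348). Ifng, the macrophage-activating interferon, was at 105 CPM in liver 1, 6.32 in spleen 1, 1.57 in liver 2 and 0.577 in spleen 2. Tnf was at 34.8 and 12.3 CPM in the livers and 11.1 and 9.31 CPM in the spleens, so a narrow step parted the tissues. Ltb, which naive T cells express, was the gene with spleen above, at 734 and 864 CPM in spleen against 422 and 708 CPM in liver.

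Most genes that T cell receptor signals induce were highest in liver 1. Of 19, none passed edgeR's test. In 5 both livers were above both spleens (Nr4a2, Rel, Tnfrsf4, Dusp5 and Icos, against 11.7% of all tested genes). None went the reverse (14.1% of all). Liver 1 was the highest library for 16 (5112 of all 15465). Of the 3 others, Dusp2, a phosphatase of MAP kinases, was lowest in liver 1 at 258 CPM against 464 to 610.05 CPM, and Batf, an AP-1 factor, was at 37.8 CPM there against 31.4, 44.6 and 35.2 CPM in liver 2, spleen 1 and spleen 2. Nr4a1, an orphan nuclear receptor and a standard reporter of receptor signalling, was at 908 CPM in liver 1, 86.6 in spleen 1, 60.5 in liver 2 and 51.9 in spleen 2. Nr4a2 was at 325 and 22.5 CPM in liver and at 14.7 and 10.6 CPM in spleen (3.78 ± 1.11, edgeR adjusted p = 0.603, DESeq2 adjusted p = 0.0481). Nr4a3 was at 188, 11.4, 19.0 and 8.05 CPM and Egr3 at 57.9, 6.55, 15.3 and 9.46 CPM in liver 1, liver 2, spleen 1 and spleen 2. Neither separated the tissues, because spleen 1 was above liver 2. Rel, an NF-kappaB subunit, was at 230 and 53.6 CPM in liver and at 37.8 and 32.4 CPM in spleen (2.01 ± 0.61, edgeR adjusted p = 0.603, DESeq2 adjusted p = 0.0373). Il2ra, the high-affinity subunit of the IL-2 receptor, was at 112 CPM in liver 1 and at 1.95 to 5.15 CPM in the others. Cd69, an early activation and retention marker, was nearly level at 335 and 356 CPM in liver and 339 and 382 CPM in spleen. The list's median difference was 2.23 between liver 1 and spleen 1 and 0.24 between liver 2 and spleen 2.

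**Figure D3:**
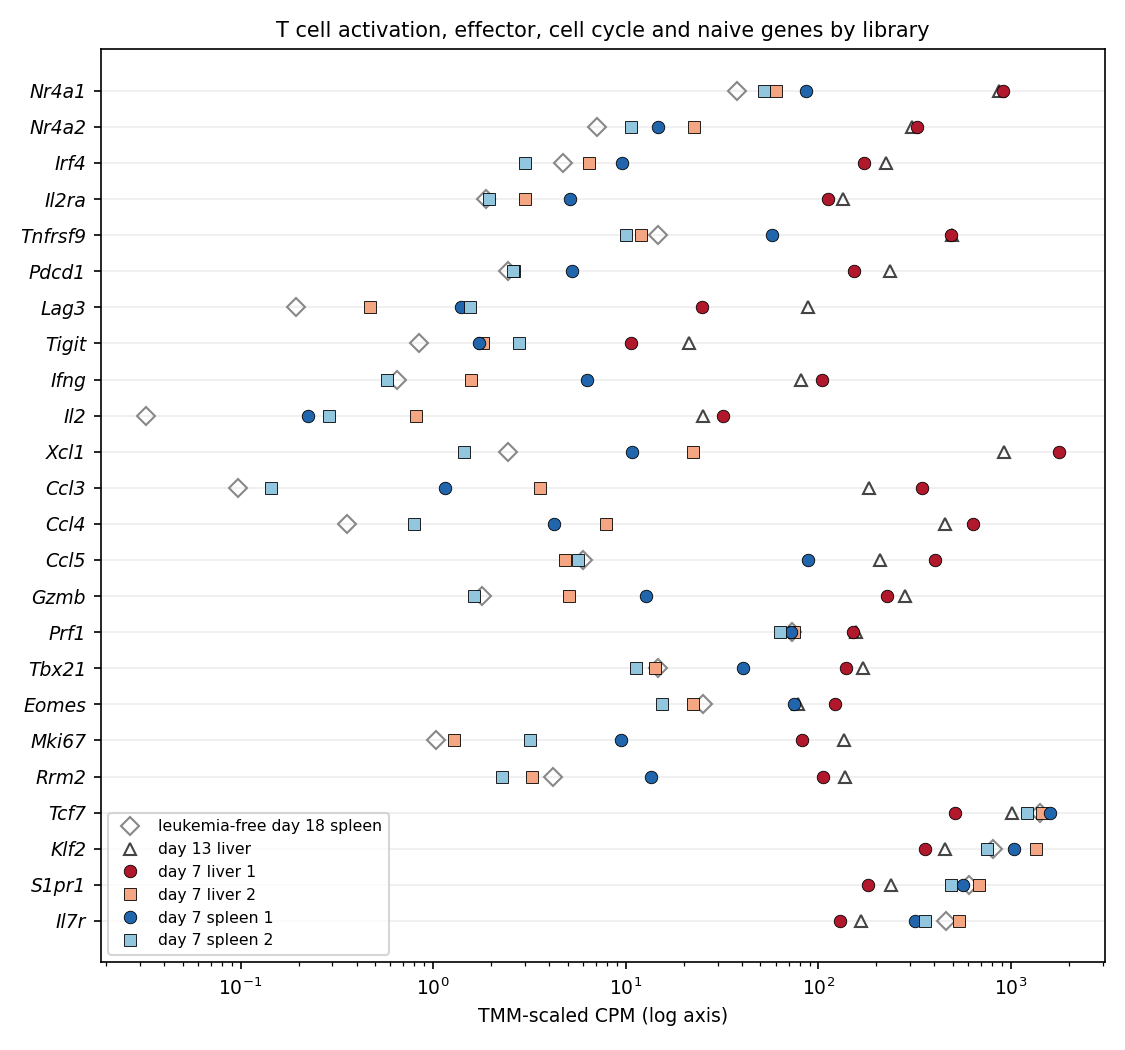
TMM-scaled CPM (log axis) of genes of T cell activation, effector function, cell cycle and the naive state in the 4 day 7 libraries, with the leukemia-free day 18 spleen and day 13 liver libraries for reference, 1 marker a library. Liver 1 is the highest of the day 7 libraries for the genes from Nr4a1 down to Rrm2 and the lowest for Tcf7, Klf2, S1pr1 and Il7r.

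All 10 co-inhibitory receptors were highest in liver 1 (5112 of all 15465 tested genes were). All were at least 2-fold above liver 2 there (15.2% of all). None separated the tissues, against 11.7% of all tested genes with both livers above and 14.1% with both spleens above. Pdcd1, which encodes PD-1, was at 154 CPM in liver 1, 5.23 in spleen 1, 2.63 in liver 2 and 2.60 in spleen 2. Lag3, which binds MHC class II, was at 25.0 CPM in liver 1, 1.55 in spleen 2, 1.40 in spleen 1 and 0.470 in liver 2. Tigit was at 10.6 CPM in liver 1 and 1.73 to 2.78 CPM in the other libraries. Ctla4 was at 53.1 CPM in liver 1, 11.2 in spleen 1, 6.83 in liver 2 and 3.61 in spleen 2. Havcr2, which encodes TIM-3, was at 3.88 CPM in liver 1, 2.20 in spleen 2, 0.252 in spleen 1 and 0.0626 in liver 2. The median difference of the list was 2.97 between liver 1 and spleen 1 and -0.72 between liver 2 and spleen 2.

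Of 12 transcription factors of effector and exhausted cells, 8 were at least 2-fold higher in liver 1 than in liver 2 (15.2% of all tested genes). Both livers were above both spleens for 1 (Id3) and below for 1 (Maf), against 11.7% and 14.1% of all. Id2 differed less, at 158 and 141 CPM in liver and 151 and 107 CPM in spleen. Tbx21, which encodes T-bet, was at 139 CPM in liver 1, 40.4 in spleen 1, 14.2 in liver 2 and 11.3 in spleen 2. Eomes, its relative, was at 122, 75.0, 22.3 and 15.3 CPM in the same order, so spleen 1 was nearer to liver 1 than to the other spleen. Tox differed little, at 92.7 and 81.9 CPM in liver and 86.1 and 65.0 CPM in spleen. Bhlhe40, which supports cytokine production, was at 81.2 CPM in liver 1 and 3.18 to 5.54 CPM elsewhere. Cblb, a ubiquitin ligase that restrains receptor signalling, was above both spleens in both livers, at 346 and 223 CPM against 213 and 148 CPM (0.65 ± 0.32, edgeR adjusted p = 0.603).

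Killing genes were high in liver 1, with spleen 1 above spleen 2 for several. Gzmb was at 227 CPM in liver 1, 12.8 in spleen 1, 5.07 in liver 2 and 1.62 in spleen 2. Gzma was at 73.8 CPM in liver 1 and 1.72 to 3.61 CPM in the others, and Gzmc at 6.24 CPM against 0.364 to 0.407 CPM. Prf1, the pore-forming protein, was the list's gene with both livers above, at 152 and 74.7 CPM against 71.9 and 63.1 CPM (0.74 ± 0.34, edgeR adjusted p = 0.603). Klrd1, the CD94 chain of natural killer receptors, had both spleens above, at 138 and 197 CPM against 76.0 and 131 CPM (-0.70 ± 0.30, adjusted p = 0.603). Of the 15 genes of the list, 12 were highest in liver 1 (5112 of all 15465 tested genes were). At least 2-fold higher in spleen 1 than in spleen 2 were 7 (2.18% of all). Klrc1, the NKG2A chain that pairs with CD94, was at 13.7 CPM in spleen 1 against 1.26 in spleen 2, with 60.7 and 0.971 CPM in the livers.

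Cell cycle genes were highest in liver 1. The 18 mitosis genes summed to 639 CPM in liver 1, 93.5 in spleen 1, 42.8 in spleen 2 and 27.8 in liver 2. All 18 were highest in liver 1 (5112 of all 15465 tested genes were). None separated the tissues, against 11.7% of all with both livers above and 14.1% with both spleens above. Mki67, the Ki-67 antigen of dividing cells, was at 82.3 CPM in liver 1, 9.43 in spleen 1, 3.18 in spleen 2 and 1.28 in liver 2. The 15 DNA replication genes summed to 2727 CPM in liver 1, 1077 in spleen 1, 911 in liver 2 and 721 in spleen 2. Cdc45, a part of the replicative helicase, was the exception that had both livers above, at 42.5 and 59.2 CPM against 20.6 and 17.6 CPM (1.41 ± 0.34, edgeR adjusted p = 0.603, DESeq2 adjusted p = 0.0418). It was higher in liver 2 than in liver 1, unlike the other 14. Of 16 glycolysis genes, 14 were highest in liver 1 (5112 of all 15465 were). In 4 both livers were above both spleens, against 11.7% of all tested genes. Gapdh was at 995 CPM in liver 1, 396 in spleen 1, 343 in liver 2 and 236 in spleen 2. Hk2, the inducible hexokinase, was at 41.2 CPM in liver 1 and 2.31 to 3.30 CPM elsewhere (edgeR adjusted p = 0.603, DESeq2 adjusted p = 0.0299). Its tissues overlapped, with spleen 1 at 3.30 CPM above liver 2 at 2.76 CPM.

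Genes of the naive state ran the other way. Of 16, liver 1 was the lowest library for 14 (5510 of all 15465 tested genes) and at least 2-fold below liver 2 for 12 (9.62% of all). Between tissues 14 overlapped, as did 11479 of all 15465. Tcf7, which encodes TCF-1, was at 510 CPM in liver 1, 1208 in spleen 2, 1439.8 in liver 2 and 1594 in spleen 1. Klf2, the factor that drives S1pr1, was at 357, 752, 1353 and 1038 CPM in liver 1, spleen 2, liver 2 and spleen 1. S1pr1 was at 181 CPM in liver 1 and 485 to 681 CPM in the others. Liver 2 was the highest of the 4 for Klf2, S1pr1, Il7r (537 CPM) and Ccr7 (1487 CPM against 591 to 816 CPM). Dapl1, a gene of quiescent T cells, was the list's gene with both spleens above, at 194 and 190 CPM against 127 and 137 CPM (-0.54 ± 0.23, edgeR adjusted p = 0.603). Foxp1, which keeps T cells quiescent, had both livers above, at 446 and 528 CPM against 399.7 and 344 CPM. Foxo1, which holds the naive program, was at 160 CPM in liver 1 and 323 to 420 CPM in the rest. The list's median difference was -1.09 between liver 1 and spleen 1 and 0.55 between liver 2 and spleen 2. Among 9 quiescence genes none separated the tissues (11.7% of all tested genes had both livers above and 14.1% both spleens). Pik3ip1, an inhibitor of PI3 kinase, was at 77.8 CPM in liver 1 and 204 to 278 CPM in the others.

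Interferon-stimulated genes were lowest in liver 1 for 19 of 20, against 5510 of all 15465 tested genes. Usp18, which turns off the type I interferon receptor, was at 28.2 CPM in liver 1 and 67.9 to 84.9 CPM in the others, and Oasl2 at 8.57 CPM against 31.7 to 50.2 CPM. Both spleens were above both livers for 2 of the 20, Isg15 and Ifi44 (14.1% of all tested genes). Both livers were above for none (11.7% of all). Isg15, a ubiquitin-like modifier, was at 19.1 and 19.8 CPM in spleen against 9.1 and 14.5 CPM in liver (-0.73 ± 0.35, edgeR adjusted p = 0.603).

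**Figure D4:**
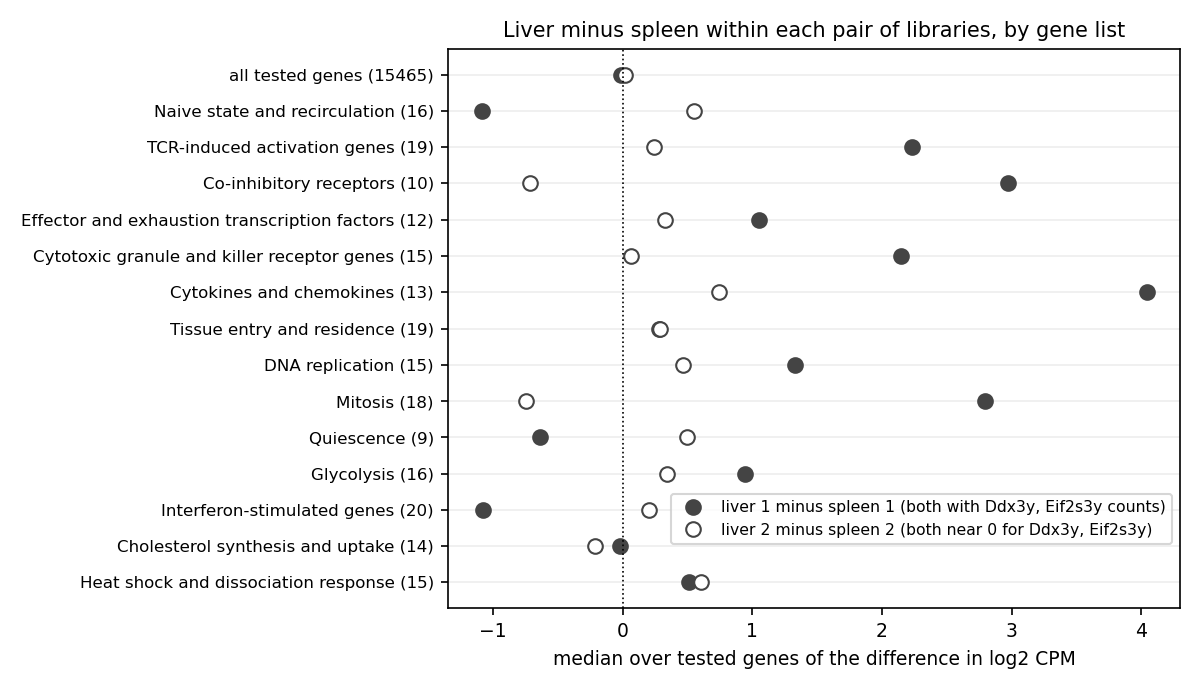
Median difference in log2 CPM of liver from spleen over the tested genes of each list (number in brackets), filled circles for liver 1 minus spleen 1 and open circles for liver 2 minus spleen 2, with no error bar. Activation, inhibitory, killing and mitosis lists lie far to the right in the pair of liver 1 only, and the heat shock list has both circles near 0.5 to 0.6.

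Adhesion and migration genes showed no common direction. Of 19, both livers were above both spleens for 2 (Rgs1 and Itga4) and below for 1 (Zfp683), against 11.7% and 14.1% of all tested genes. Rgs1, a brake on chemokine receptor signals and a marker of T cells that stay in tissues, was at 106 and 55.0 CPM in liver and at 27.8 and 22.7 CPM in spleen (1.67 ± 0.60, edgeR adjusted p = 0.603). Its difference was 1.94 between liver 1 and spleen 1 and 1.27 between liver 2 and spleen 2. Cxcr6, which holds T cells in the liver, was at 91.8 and 130 CPM in liver and 112 and 125 CPM in spleen. Itgae, the CD103 integrin chain, was at 42.8 CPM in liver 1 and 314 in liver 2, with 171 and 166 CPM in the spleens between them. Cxcr3, a receptor of effector cells, was at 101 CPM in liver 1, 32.8 in spleen 1, 9.74 in liver 2 and 5.77 in spleen 2, and Cd44 at 68.6, 19.4, 3.32 and 6.75 CPM in the same order.

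Some heat shock genes were higher in both livers than in both spleens, and none passed edgeR's test. Their products are chaperones that fold and refold proteins, and both heat and the isolation of cells from tissue are known to induce them. Of the 15 genes of the heat shock and dissociation list, 7 had both livers above both spleens (11.7% of all tested genes did), 6 of them chaperones, and 1 (Zfp36) had both spleens above (14.1% of all). The co-chaperones Dnaja1 and Dnajb1 overlapped, at 231 and 307 CPM in liver against 278 and 257 CPM in spleen and at 308 and 645 CPM against 336 and 299 CPM. Hspa8, the constitutive HSP70, was at 3198 and 2829 CPM in liver and at 1927 and 1457 CPM in spleen (0.83 ± 0.28, edgeR adjusted p = 0.603). Hsph1, an HSP110 that exchanges nucleotide on HSP70, was at 204 and 186 CPM against 119 and 86.3 CPM (0.93 ± 0.30, adjusted p = 0.603). Hsp90ab1 was at 2354 and 1369 CPM in liver against 1210.2 and 704 CPM in spleen (0.96 ± 0.34), and Hsp90aa1 at 741 and 533 CPM against 455 and 353 CPM. For Hspa8, Hsph1 and Hsp90ab1 each liver was 0.73 to 1.10 higher in log2 CPM than the spleen of its pair. The inducible HSP70 genes varied more. Hspa1a was at 976 and 2198 CPM in liver against 471 and 101 CPM in spleen (2.47 ± 1.53, adjusted p = 0.655), and Hspa1b at 2014 and 4518 CPM against 1409.6 and 341 CPM (1.90 ± 1.33, adjusted p = 0.685). They are near-identical copies, so kallisto's split of reads between them is uncertain. For these, liver 2 was above liver 1, opposite to the activation genes. Hspa1a also varied in other libraries, at 429.6 CPM in the leukemia-free day 18 library and 62.3 CPM in the XC day 0 library. The study's flow cytometry methods give a Ficoll gradient step for liver cells and name no such step for spleen. Handling by these methods cannot be told apart from tissue, and its part in these levels was not tested. Immediate early genes of the same list did not go along. Fos was at 276 and 1091 CPM in liver against 1163 and 980.1 CPM in spleen, and Jun at 386 and 1605 CPM against 789 and 760 CPM. Atf3, a stress factor, was at 25.7 CPM in liver 1, 1.16 in liver 2 and 0.448 and 0.758 CPM in spleen (4.48 ± 1.35, edgeR adjusted p = 0.603, DESeq2 adjusted p = 0.00193).

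Start sites of chaperone genes are shown because heat shock factor binds repeats of GAA in alternating orientation. Of the 6 chaperone genes with both livers above both spleens, only Hspa1a, Hspa1b and Hsph1 are shown. Hspa8, Hsp90aa1 and Hsp90ab1 had no entry in the source of start sites, so no match could be looked for in them. The sequences are from RefSeq on GRCm38.p6, 250 bases before to 50 after the start site, on the minus strand, with capitals for the dimer letters GAANNTTC or TTCNNGAA, which can overlap and read the same on both strands. Hspa1a lies at chr17:34972107-34972406, Hspa1b at chr17:34959189-34959488 and Hsph1 at chr5:149636287-149636586.
Hspa1a: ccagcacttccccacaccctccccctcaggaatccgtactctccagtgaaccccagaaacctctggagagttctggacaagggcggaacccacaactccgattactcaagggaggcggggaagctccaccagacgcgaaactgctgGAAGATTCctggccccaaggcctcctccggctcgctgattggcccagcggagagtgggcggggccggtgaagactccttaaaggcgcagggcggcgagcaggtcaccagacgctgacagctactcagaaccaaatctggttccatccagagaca
Hspa1b: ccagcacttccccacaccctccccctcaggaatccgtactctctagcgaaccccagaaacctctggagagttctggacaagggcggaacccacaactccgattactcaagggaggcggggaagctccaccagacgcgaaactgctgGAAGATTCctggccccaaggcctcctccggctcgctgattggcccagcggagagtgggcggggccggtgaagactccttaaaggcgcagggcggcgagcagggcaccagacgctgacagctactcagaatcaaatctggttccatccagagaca
Hsph1: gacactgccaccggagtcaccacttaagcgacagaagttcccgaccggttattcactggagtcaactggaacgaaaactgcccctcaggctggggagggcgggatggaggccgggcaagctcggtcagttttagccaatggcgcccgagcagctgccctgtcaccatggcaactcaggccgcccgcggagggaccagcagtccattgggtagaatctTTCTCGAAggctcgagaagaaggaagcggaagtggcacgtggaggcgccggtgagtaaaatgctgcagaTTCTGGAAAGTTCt
The Hspa1a and Hspa1b windows differ at 4 of 300 bases, and each holds 1 match, which starts at position -104 from the start site. Hsph1 holds 3 matches, and so does the window of its other start site in RefSeq. Of all 27025 genes with such a window, 17.0% hold a match and 2.21% hold 2 or more. In the list, 11 of the 15 genes have a window and 5 of them hold a match (45.5%). These are Hspa1a, its near-identical copy Hspa1b, Hsph1, Dnaja1 and Jun, and the tissues overlapped for Dnaja1 and Jun. The list was chosen for heat shock and dissociation genes, and its share was not tested. A match is a description of letters, not of binding.

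The 14 genes of cholesterol synthesis and uptake had a median log2 fold change of -0.09. None of them had both livers above both spleens (11.7% of all tested genes did), and 3 had both spleens above (14.1% of all).

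The 12 protein-coding genes of the widest gap with both livers above, at a mean of at least 16 CPM over the 4 libraries, were Ccl3, Hspa1a, Cdc45, Xcl1, Rgs1, Ccl4, Trib1, Tgif1, Hsph1, Ass1, Bcl2l11 and Nr4a2. Trib1, a pseudokinase, was at 30.9 and 17.1 CPM in liver and at 10.1 CPM in each spleen (1.25 ± 0.37, edgeR adjusted p = 0.603). Ass1, which makes arginine from citrulline, was at 34.9 and 31.9 CPM against 18.4 and 20.3 CPM (0.78 ± 0.28). Bcl2l11, which encodes the death protein BIM, was at 104 and 98.3 CPM against 63.5 and 59.9 CPM (0.71 ± 0.23). Tgif1, a repressor of SMAD signalling, was at 68.2 and 56.8 CPM against 35.1 and 33.2 CPM (0.87 ± 0.27). In Ass1, Bcl2l11 and Tgif1 the libraries of a tissue lay closer together than the tissues. Over all 30 genes with a gap of this direction, 15 were protein-coding, 9 had liver 1 at least 2-fold above liver 2, and the median log2 CPM was 0.76 and 0.20 in the livers and -1.94 and -2.49 in the spleens, so most were genes of low counts.

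With both spleens above, the widest gaps at that mean CPM were in 9 named and 3 predicted genes. Smad4, the common mediator of TGF-beta signals, was at 16.0 and 47.9 CPM in liver and at 171 and 126 CPM in spleen (-2.22 ± 0.49, edgeR adjusted p = 0.603, DESeq2 adjusted p = 0.0026). Akt1, a kinase of growth factor signalling, was at 30.7 and 48.4 CPM against 185 and 127 CPM (-1.98 ± 0.50, edgeR adjusted p = 0.603, DESeq2 adjusted p = 0.0164). Gna12, a G protein subunit, was at 4.05 and 7.70 CPM against 39.8 and 25.7 CPM (-2.48 ± 0.60, edgeR adjusted p = 0.603, DESeq2 adjusted p = 0.00454). In these genes liver 1 was the lowest library. Ppp2cb, a catalytic subunit of PP2A, was at 6.64 and 9.11 CPM against 37.5 and 34.3 CPM (-2.19 ± 0.60). Hnrnpa0, an RNA-binding protein, was at 13.0 and 12.8 CPM against 41.0 and 37.0 CPM (-1.60 ± 0.41). Inafm2, Mex3c, Mbd2 and Marveld1 had log2 fold changes of -2.19, -1.87, -1.70 and -2.11. At later days livers were higher for several of them. Akt1 was at 131 CPM in the day 13 liver and 302 CPM in the day 16 liver, and Gna12 at 15.3 and 49.3 CPM. The day 16 liver was above the lower day 7 spleen for 7 of the 9 genes, the day 14 liver for 6 and the day 13 liver for 1. The predicted genes Gm10800, Gm10801 and Gm10719 were at 426, 147 and 70.2 CPM in spleen 2, at 49.3, 16.2 and 12.1 CPM in spleen 1 and at 17.3 CPM or less in liver, so spleen 2 set their size. In 65 of all 134 genes with spleen above, spleen 2 was at least 2-fold above spleen 1.

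**Figure D5:**
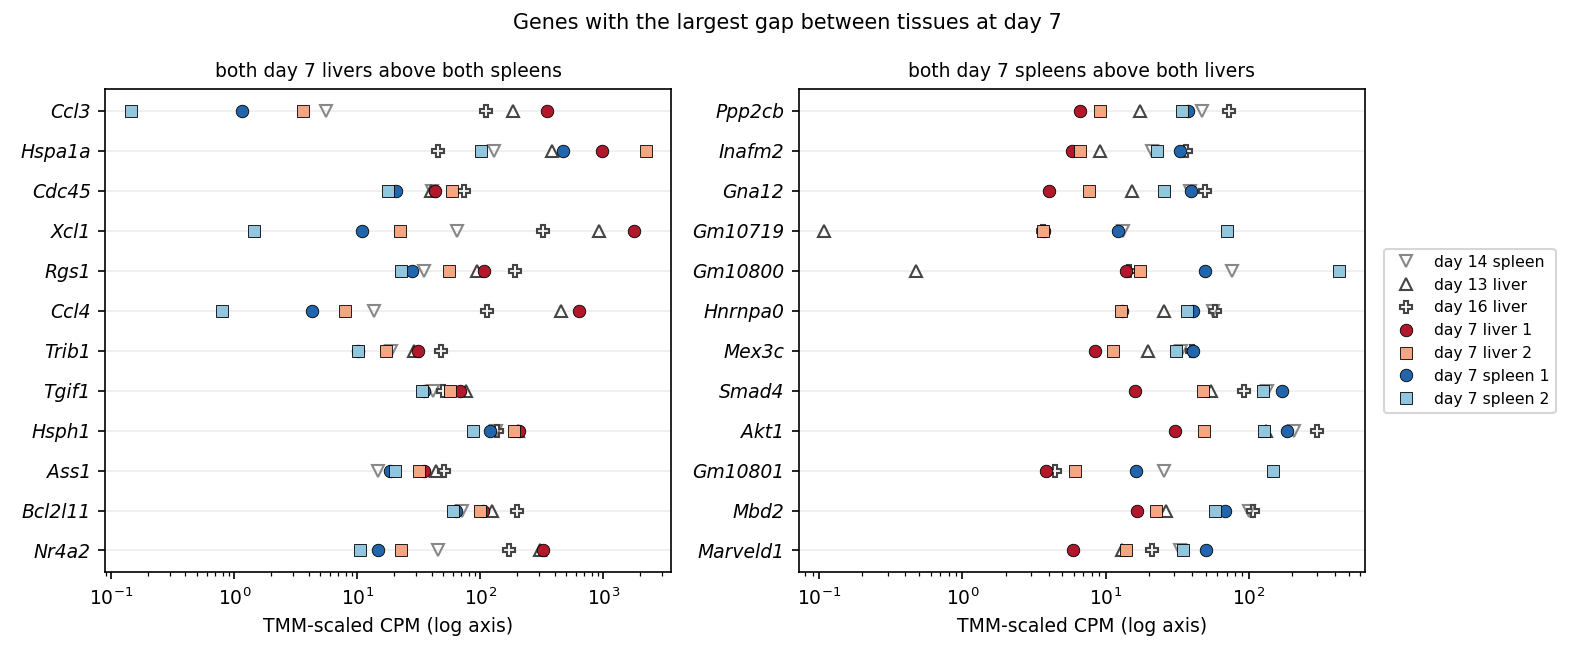
TMM-scaled CPM (log axis) of the 12 genes with the widest gap in each direction, with both day 7 livers above both day 7 spleens on the left and the reverse on the right, 1 marker a library, and the day 14 spleen, day 13 liver and day 16 liver for reference. On the right the day 16 liver lies above both day 7 spleens for Ppp2cb, Inafm2, Gna12, Akt1, Hnrnpa0 and Mbd2.

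Differences within a tissue were ranked among protein-coding genes at a mean of at least 16 CPM over the 4 libraries. The 8 with the widest excess of liver 1 over liver 2 were Xcl1, Ccl3, Ccl4, Ccl5, Ifng, Zbtb32 and the Y-linked Ddx3y and Eif2s3y. Gzmk, below that mean, was at 33.7 CPM in liver 1 and 0.0940 CPM in liver 2. Zbtb32, a repressor induced by activation, was at 134 CPM in liver 1, 9.20 in spleen 1, 1.34 in spleen 2 and 0.971 in liver 2. With the widest excess of liver 2 were Cebpb, Ctse, Cyp2s1, Gm20388, Irs2, Itgae, Oas2 and Themis2. Cebpb, a basic leucine zipper factor, was at 3.53 CPM in liver 1, 110 in liver 2 and 75.3 and 70.7 CPM in the spleens, and at 57.0 to 70.3 CPM in the XC livers of days 13 to 16. Irs2, an adaptor of insulin and IL-4 receptors, was at 35.1, 299.8, 216 and 164 CPM in liver 1, liver 2, spleen 1 and spleen 2. Liver 1 was the lowest library for both. Ctse, cathepsin E, was at 195 and 161 CPM in liver 2 and spleen 2 and at 14.7 and 25.3 CPM in liver 1 and spleen 1, so it followed the pairs rather than the tissues, and Themis2 did likewise at 40.4 and 21.9 CPM against 3.08 and 2.91 CPM.

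Within the spleens, by the same ranking, the widest excess of spleen 1 over spleen 2 was in Ddx3y, Eif2s3y, Ccl5, Gzmb, Ifng, Klrc1, Slamf7 and Utf1. Slamf7, a receptor of killer cells, was at 18.8 and 2.31 CPM in spleen and at 118 and 2.47 CPM in liver 1 and liver 2. These are genes that were also high in liver 1. The widest excess of spleen 2 was in 4 olfactory receptor genes (Olfr1385, Olfr46, Olfr769 and Olfr90), Gm10800, Gm10801, Themis2 and Zfp488, with Olfr1385 at 277 CPM against 24.4 to 35.4 CPM in the other 3.

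The same tissue difference could be set beside that of days 13 and 14 (3 liver libraries and 1 spleen library, assumed to vary as the others). The difference of the tissue differences passed the test for none of 15465 genes (edgeR, lowest adjusted p = 0.0521, 165 genes at an unadjusted p below 0.05, 8 genes by DESeq2). Median log2 fold changes of the lists at days 13 and 14 were 3.65 for cytokines and chemokines, 2.34 for co-inhibitory receptors, 1.59 for activation genes and -0.79 for naive genes, against 3.93, 1.42, 1.99 and -0.08 at day 7. For heat shock and dissociation genes the medians were 0.01 at days 13 and 14 and 0.65 at day 7. Pdcd1 was at 32.8 CPM in the day 14 spleen, above 3 of the 4 day 7 libraries, and at 235, 414 and 526 CPM in the XC livers of days 13, 14 and 16, above liver 1 at 154 CPM. Xcl1 was at 922 CPM in the day 13 liver and 320 CPM in the day 16 liver, below liver 1 at 1774 CPM.

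Without liver 2, edgeR called 1075 genes at day 7, 852 higher (5.51%) and 223 lower (1.44%) in the remaining liver 1, which was assumed to vary as the other groups. These included 10 of 19 activation genes higher and 1 lower, 5 of 10 co-inhibitory receptors higher, 12 of 18 mitosis genes higher and 3 of 16 naive genes lower. Higher were also 6 of 13 cytokine and chemokine genes, 5 of 12 transcription factors, 4 of 15 replication, 8 of 16 glycolysis and 2 of 15 heat shock genes. Of the killing genes 5 of 15 were higher and 1 lower, and of the tissue entry genes 3 of 19 higher and 2 lower. Lower were 2 of 20 interferon-stimulated genes, and none of the 9 quiescence or 14 cholesterol genes was called. Without liver 1 it called 2 genes, both lower in liver, and none on any of the 14 lists. Nothing in the labels ties a library to an animal, so p-values measure the spread between these samples, which may be technical.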

How the data were processed

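RNA was measured by low-input RNA-seq in sorted Tg101 CD8+ T cells. The authors deposited a table for each sequencing run with estimated counts and TPM for each transcript. The submitters' processing notes name bcl2fastq, kallisto, GRCm38 and mm10, and versions are not given in the sources used here. Transcripts were assigned to genes by GENCODE mouse release 21 (98.25% of transcripts and at least 99.0% of the deposited estimated counts in each library). Estimated counts were summed per gene and over the runs of a library, which differed by a mean chi-square of 1.85 to 2.26 per gene against 63.3 and 292 between libraries of a tissue, and were rounded to whole numbers. The deposited TPM values were summed per gene and kept in the tables only. kallisto splits reads between near-identical copies, so single values of such genes are uncertain.

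The quasi-likelihood test of edgeR 4.0.16 in R 4.3.3 (TMM scaling, robust) was fitted on 14 libraries with group and series as terms, on the 15465 genes that reached 10 counts in 6 or more libraries. An oligo-dT library was not used. P-values were adjusted by Benjamini-Hochberg over all tested genes with a threshold of 0.05. CPM are TMM-scaled, and log2 CPM use a prior count of 2. DESeq2 1.42.0, other filters and scalings, other sets of libraries and leaving out each day 7 library were the alternatives. The fit was tested on simulated data. The members and lists were chosen with earlier results of these data known. Genes named with a fold change are, per list, up to 4 genes whose tissues did not overlap and the gene of highest CPM. Added to these are the 12 genes with the widest gap in each direction and the genes the study names. The last are the 8 genes with the widest difference between libraries of a tissue in each direction. The gap and difference rules used protein-coding genes at a mean of 16 CPM or more over the 4 day 7 libraries. Other list members given by CPM were chosen as examples after their values were seen. Depth was 22691255 to 37984733 estimated counts in the day 7 libraries. Some genes that the rule names are not reported here.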

Additional observations from a re-analysis of the deposited data

Results flagged for a closer look

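Lag3, an inhibitory receptor, went in opposite directions in the pairs of libraries set by the levels of Ddx3y and Eif2s3y. It was 4.11 higher in log2 CPM in liver 1 than in spleen 1 and its difference of liver 2 from spleen 2 was -1.63, at 25.0, 0.470, 1.40 and 1.55 CPM in liver 1, liver 2, spleen 1 and spleen 2. The difference between the pairs was not tested.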

How the results depend on the processing

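The count of genes that differed between day 7 liver and spleen was 0 in edgeR and stayed 0 with RLE scaling, with a filter on the 4 day 7 libraries, with those 4 or the XC libraries alone, without the series term and with protein-coding genes alone. It was 90 with DESeq2, 927 with no filter on low counts, 1 with the first run of each library and 1 with cell sex as a term, which was added after the data were seen. Leaving out 1 library gave 0 to 1075 genes, namely 2 without liver 1, 1075 without liver 2, 59 without spleen 1 and 0 without spleen 2. The difference from the tissue difference of days 13 and 14 was 0 genes, but 8 with DESeq2, 69 with no filter, 1 with the day 7 filter and 0 to 7 with 1 library left out (7 without liver 1 and 4 without liver 2). Genes with liver above by the 2-fold gap were 30, against 69 with no filter, 15 with protein-coding genes and 94 to 1148 with 1 library left out. Those with spleen above were 134, against 1193 with no filter, 202 with the day 7 filter and 198 to 2424 with 1 library left out. Leaving out a library makes a gap easier to meet, and the cause of the other changes was not tested. For the 56 genes of the naming rule whose tissues did not overlap, 712 values under the alternatives kept their side of the threshold, 72 passed it, and none reversed. These genes were chosen from the same data for tissues that did not overlap, so a reversal was unlikely from the start. None of them passed the threshold in the main fit, so a value that kept its side was one that stayed uncalled. The positions of the 4 libraries kept their order under RLE scaling, protein-coding genes or the first run, and spleen 2 was at 0.00433 to 0.0580. No paired analysis was possible because the labels tie no liver library to a spleen library, and the fit with cell sex as a term above rests on pairs read from the data. The effect of depth was not tested.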
